A study of Mus musculus with 18 samples.

Results

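The genes for the proteins of the cytosolic ribosome were followed through the early erythroid lineage of the mouse. They were taken from the table of gene symbols as every name made of Rpl or Rps, a number and at most a final a or x, with Rplp0, Rplp1, Rplp2 and Rpsa added. The rule found 76 of 21967 genes, 46 of the large and 30 of the small subunit. Rpl13 was listed at 0 counts in all 18 libraries. Counting error alone allows at most 3 counts, or 0.320 to 0.847 CPM (reads scaled to a fixed library total, here without TMM factors). Its exons overlap Mir7079 and Snord68 on the same strand, and 80.3% of short windows of its transcript also occur in transcripts of other genes. Whether its reads were dropped or given to other genes was not tested, so this limit is not read as its level. The other 75 ribosomal protein genes all averaged at least 5 CPM and passed the filter on low counts. The name pattern leaves out a few ribosomal proteins, among them Fau, Gnb2l1 (the table's name for Rack1) and Rps3a1.

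RNA came from 2 bone marrow progenitors, PreCFU-E and the CFU-E that they give rise to, sorted by surface markers that include CD105, CD150 and CD41 after enrichment for c-Kit. The mice differed in the gene for stem cell factor (Scf, also called Kitl), the ligand of KIT. FL/FL mice carried floxed copies, KO/FL mice had a null copy in every cell and a floxed one, while KO/FL;Lepr-Cre mice (Lepr-Cre below) also had Cre expressed from the leptin receptor gene, which is active in perivascular stromal cells of the marrow. Floxed Scf is thus carried by all 3 genotypes, the null copy by the KO/FL and Lepr-Cre mice, and the Cre acts in stroma rather than in the cells that were sequenced. Each genotype had 3 mice, with replicate letters A (male), B (female) and C (male), and both cell types were sequenced from all 9 mice, whose ages are unstated in the labels. Libraries were made from nanogram amounts of RNA of sorted cells and held 3541066 to 9389122 counts.

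A ribosome carries a single copy of nearly every one of these proteins, apart from the stalk proteins Rplp1 and Rplp2, which sit on it as pairs bound to Rplp0. Most of their messengers begin with a C followed by a run of pyrimidines, the terminal oligopyrimidine (TOP) motif, through which mTOR and LARP1 control their translation together. Erythroid progenitors divide fast and fill with globin, and a mutation in a single copy of several of these genes causes Diamond-Blackfan anaemia, in which red cell precursors fail. Messenger levels, which are what was measured here, are only part of that control. In sorted populations a lower value can mean fewer cells with the RNA or less of it per cell, which cannot be told apart.

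The libraries bore out their labels as erythroid progenitors. The 8 erythroid markers (Gata1, Klf1, Epor and Kit among them) summed to 4916 to 5618 CPM, and 8 late erythroblast markers to 29.1 to 78.8 CPM in PreCFU-E and 158.7 to 274.1 CPM in CFU-E. Markers of neutrophils and monocytes, mast cells and basophils, B cells, T and NK cells and island macrophages each summed to at most 9.46 CPM in any library, with Elane and Ctsg at 0 in all of them. Stromal markers summed to at most 25.5 CPM, endothelial markers to at most 46.8 CPM and megakaryocyte markers to at most 52.9 CPM. Kitl, the targeted gene, reached at most 1 count in any library of any genotype, so these cells cannot check its deletion, which concerns other cells.

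The sequences around the start of transcription are shown for 8 members on which the results below turn: Rpl5 and Rps3, which had the smallest p between Lepr-Cre and FL/FL PreCFU-E, Rpl13a, Rpl24, Rpl41 and Rps18, which differed most between cell types, and Rpl35 and Rps25, which with Rpl41 differed most between replicate letters. Each line gives 50 bases before and 30 bases from the RefSeq start (GRCm38.p6), 5′ to 3′ on the gene's strand, with the first of the longest runs of C and T in capitals.
Rpl5: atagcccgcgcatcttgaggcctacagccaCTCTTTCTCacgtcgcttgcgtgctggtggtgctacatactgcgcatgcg
Rps3: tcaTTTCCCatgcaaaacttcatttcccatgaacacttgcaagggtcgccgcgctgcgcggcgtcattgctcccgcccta
Rpl13a: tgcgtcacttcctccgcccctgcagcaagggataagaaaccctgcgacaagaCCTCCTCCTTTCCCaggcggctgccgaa
Rpl24: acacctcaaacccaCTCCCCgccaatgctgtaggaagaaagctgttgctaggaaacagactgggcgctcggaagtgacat
Rpl41: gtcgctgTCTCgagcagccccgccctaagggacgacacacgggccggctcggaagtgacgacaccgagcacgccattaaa
Rps18: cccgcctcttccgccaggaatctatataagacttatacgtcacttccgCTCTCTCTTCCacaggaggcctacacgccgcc
Rpl35: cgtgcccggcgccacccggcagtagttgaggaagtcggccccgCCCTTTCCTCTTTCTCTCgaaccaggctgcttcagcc
Rps25: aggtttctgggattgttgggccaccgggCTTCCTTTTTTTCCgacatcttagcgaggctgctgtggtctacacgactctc

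These windows are Rpl5 at chr5:107900478-107900557 on the plus strand, Rps3 at chr7:99483680-99483759 on the minus strand, Rpl13a at chr7:45128716-45128795 on the minus strand, Rpl24 at chr16:55966225-55966304 on the plus strand, Rpl41 at chr10:128549139-128549218 on the minus strand, Rps18 at chr17:33955636-33955715 on the minus strand, Rpl35 at chr2:39005102-39005181 on the minus strand and Rps25 at chr9:44407664-44407743 on the plus strand. The run was 9 bases in Rpl5, 14 in Rpl13a, 11 in Rps18, 18 in Rpl35 and 14 in Rps25, and no longer than 6 in Rps3 and Rpl24 and 4 in Rpl41. RefSeq entries matched 56 of the 76 members, and the run does not always sit at the annotated start, as in Rpl5, where it begins 20 bases before it. At least 8 pyrimidines in a row occurred in this window in 37 of the 56 members, or 66.1%, against 33.6% of all 27025 genes with an entry. CTTTCC on the gene's own strand was there in 13 members (23.2%) and in 4.49% of all genes. CCGGAAG on either strand, the letters of an ETS family site, was found from 250 bases before to 50 bases after the start in 23 members (41.1%), against 9.93% of all genes and 24.2% of the genes expressed here. CACGTG stood in 10.7% of members, between the 8.09% of all genes and the 12.8% of expressed genes. The subunits held the pyrimidine run at like shares, 67.6% of 34 large and 63.6% of 22 small members, and CCGGAAG in 41.2% and 40.9%, while CTTTCC was in the window of 29.4% of large and 13.6% of small members. A C stood at an annotated start in 19 of the 56 members (33.9%), against 18.9% of all genes, and a C or T in 28 (50%), against 33.2%. All of these are matches of letters, not measured starts or bound sites.

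Levels of different genes were compared per kilobase of an annotated transcript, as CPM per kb. The 5 highest members were Rplp1 (2458 CPM per kb, mean of 18 libraries), Rpl8 (2073), Rpl4 (1766), Rps9 (1199) and Rplp2 (1160). Rplp1 and Rplp2 form the acidic stalk that recruits elongation factors, Rpl8 lies beside the catalytic centre and Rpl4 lines the tunnel through which the new chain leaves. The 5 lowest were Rpl39 (56.6), Rpl18 (63.5), Rpl13a (66.1), Rpl15 (69.0) and Rps15a (72.0). Rplp0, the base of the stalk, stood at 982.5 and Rpsa, a small subunit protein first described as a laminin receptor precursor, at 875.7 CPM per kb. From the lowest to the highest the members spanned 43.4-fold, although the proteins are needed in near equal numbers. The median was 401.7 CPM per kb over the large and 479.0 over the small subunit, with ranges of 56.6 to 2458 and 72.0 to 1199 that overlap over most of their width.

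The order of levels was nearly fixed: Spearman's rho between any 2 libraries was at least 0.947 over the 75 members. Many neighbours in that order overlapped in range from library to library, as the plot of levels by member shows. The per kilobase value also depends on the transcript taken. Rps15a, Rps20 and Rpl18 have annotated transcripts of 5179, 3706 and 2989 bases, so their low values rest on those lengths. These genes have many processed copies in the genome, and a median of 44.0% of a member's 50-base windows also occurred in transcripts of other genes, and 98.6% of those of Rps27. Reads from such windows can be split or dropped in counting, so levels of members with copies are uncertain. Across members the level and the shared percentage had a Spearman's rho of 0.22 (n = 75 genes of the same libraries), and the 32 members with over 50% shared windows had a median of 529.0 CPM per kb, against 352.4 in the other 43.

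**Figure D1:**
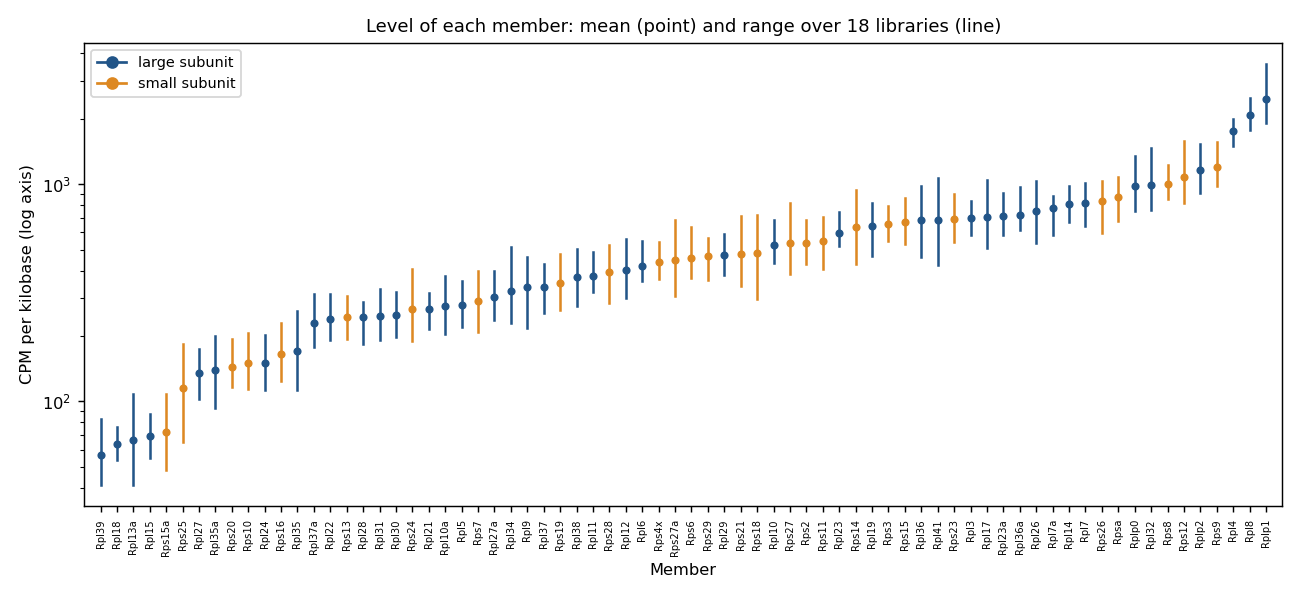
Level of 72 of the 75 measured members in CPM per kilobase of transcript (log axis), as the mean of 18 libraries (point) and the lowest to highest library (line), with large subunit members in blue and small subunit members in orange. Levels run from 56.6 in Rpl39 to 2458 in Rplp1, and the 2 subunits are mixed along the order.

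Together the 75 genes took 3.19% to 4.69% of a library's counts. PreCFU-E of FL/FL mice A, B and C had shares of 3.51%, 3.37% and 4.31%, those of KO/FL mice 3.19%, 3.35% and 4.69%, and those of Lepr-Cre mice 3.25%, 3.34% and 4.06%. For CFU-E the shares were 3.47%, 3.49% and 4.66% (FL/FL), 3.32%, 3.42% and 4.38% (KO/FL) and 3.38%, 3.57% and 4.28% (Lepr-Cre). Exact 95% binomial intervals reach 0.0115 to 0.0183 percentage points to either side and cover counting error only. Every C library (4.06% to 4.69%) thus lay above every A and B library (3.19% to 3.57%), while the 3 genotypes and the 2 cell types overlapped. Group means ran from 3.55% ± 0.45 (SD, n = 3) in Lepr-Cre PreCFU-E to 3.87% ± 0.68 in FL/FL CFU-E, and the SD includes the difference between letters. Within letters the share was below that of FL/FL in 3 of 3 Lepr-Cre and 2 of 3 KO/FL PreCFU-E libraries, and in 2 of 3 Lepr-Cre and 3 of 3 KO/FL CFU-E libraries.

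**Figure D2:**
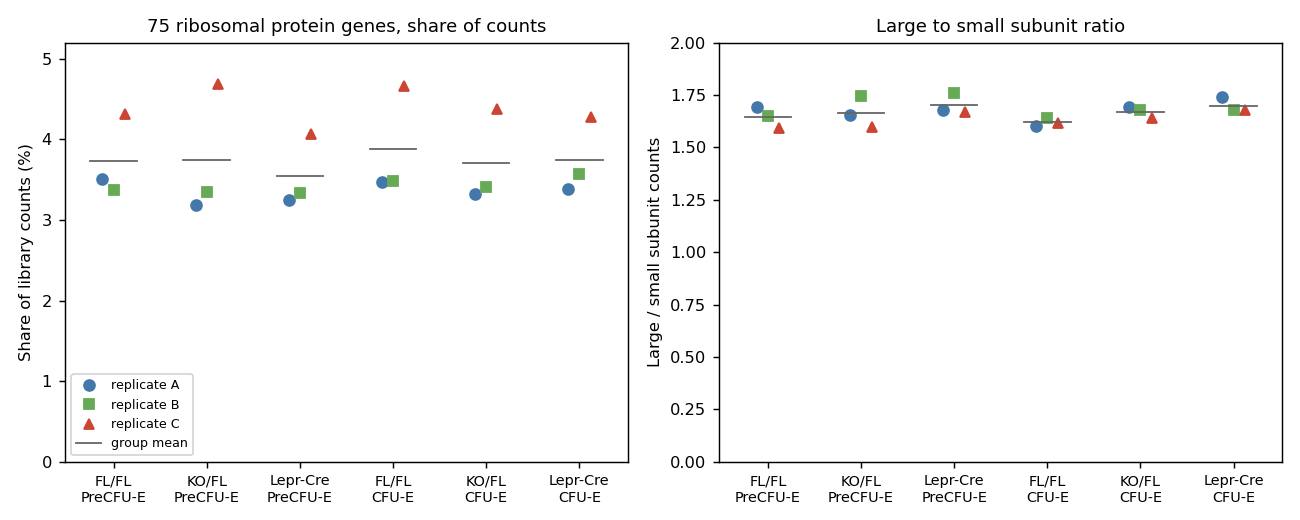
Share of each library's counts in the 75 ribosomal protein genes (left, percent) and ratio of large to small subunit counts (right) for the 6 groups, with a point per library by replicate letter and a line at the group mean. The 6 replicate C libraries lie between 4.06% and 4.69% and the other 12 between 3.19% and 3.57%, while the ratio stays between 1.59 and 1.76.

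The whole set differed in this way. Averaged over the 6 groups, all 75 members were higher in C than in the mean of A and B, with a median log2 difference of 0.40 and a range from 0.15 in Rpl5 to 0.80 in Rpl35. C was the highest of the 3 libraries in each of the 6 groups for 61 of the 75 members, and in 5 groups for another 13. Among all 8865 genes of at least 5 CPM this held for 3.58%. Rpl41, which encodes a very short basic peptide, read 248.1 and 259.9 CPM in A and B of FL/FL PreCFU-E and 424.5 in C, and 358.8, 450.0 and 621.1 CPM in the CFU-E of the same mice. Rpl35, which lies at the mouth of the exit tunnel, went from 107.2 and 121.9 to 219.3 CPM in FL/FL PreCFU-E. At the other end Rps3 differed by 0.16, Rpl4 by 0.18 and Rpl23a by 0.20. The small subunit differed by a median of 0.44 and the large by 0.37.

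Other genes moved with C as well, by the length of their transcripts. Genes were classed by their longest annotated protein-coding transcript, whether or not the reads came from it. Among other genes of at least 5 CPM, the median log2 difference of C from A and B was 0.30 for 358 genes with transcripts below 1000 bases, 0.14 for 1561 genes of 1000 to 2000 bases, 0.01 for 3444 genes of 2000 to 4000 and -0.10 for 3051 longer genes. In the same classes the members' medians were 0.42 (42 genes), 0.31 (27 genes) and 0.40 (5 genes), with 0.69 for Rps15a, the only member in the longest. Rps15a falls there through an annotated transcript of 5179 bases, and which of its transcripts was read was not tested. The 76 mitochondrial ribosomal protein genes of at least 5 CPM had a median of 0.26 and 14 of them were highest in C in all 6 groups, 22 other genes with TOP messengers 0.16 with 8 such genes, and 26 ribosome biogenesis genes -0.01 with 1. A and C mice were male and B mice female. The part of transcript length, of sex, of library preparation and of the animals in the difference was not tested, and the labels do not say what the letters stand for beyond sex.

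**Figure D3:**
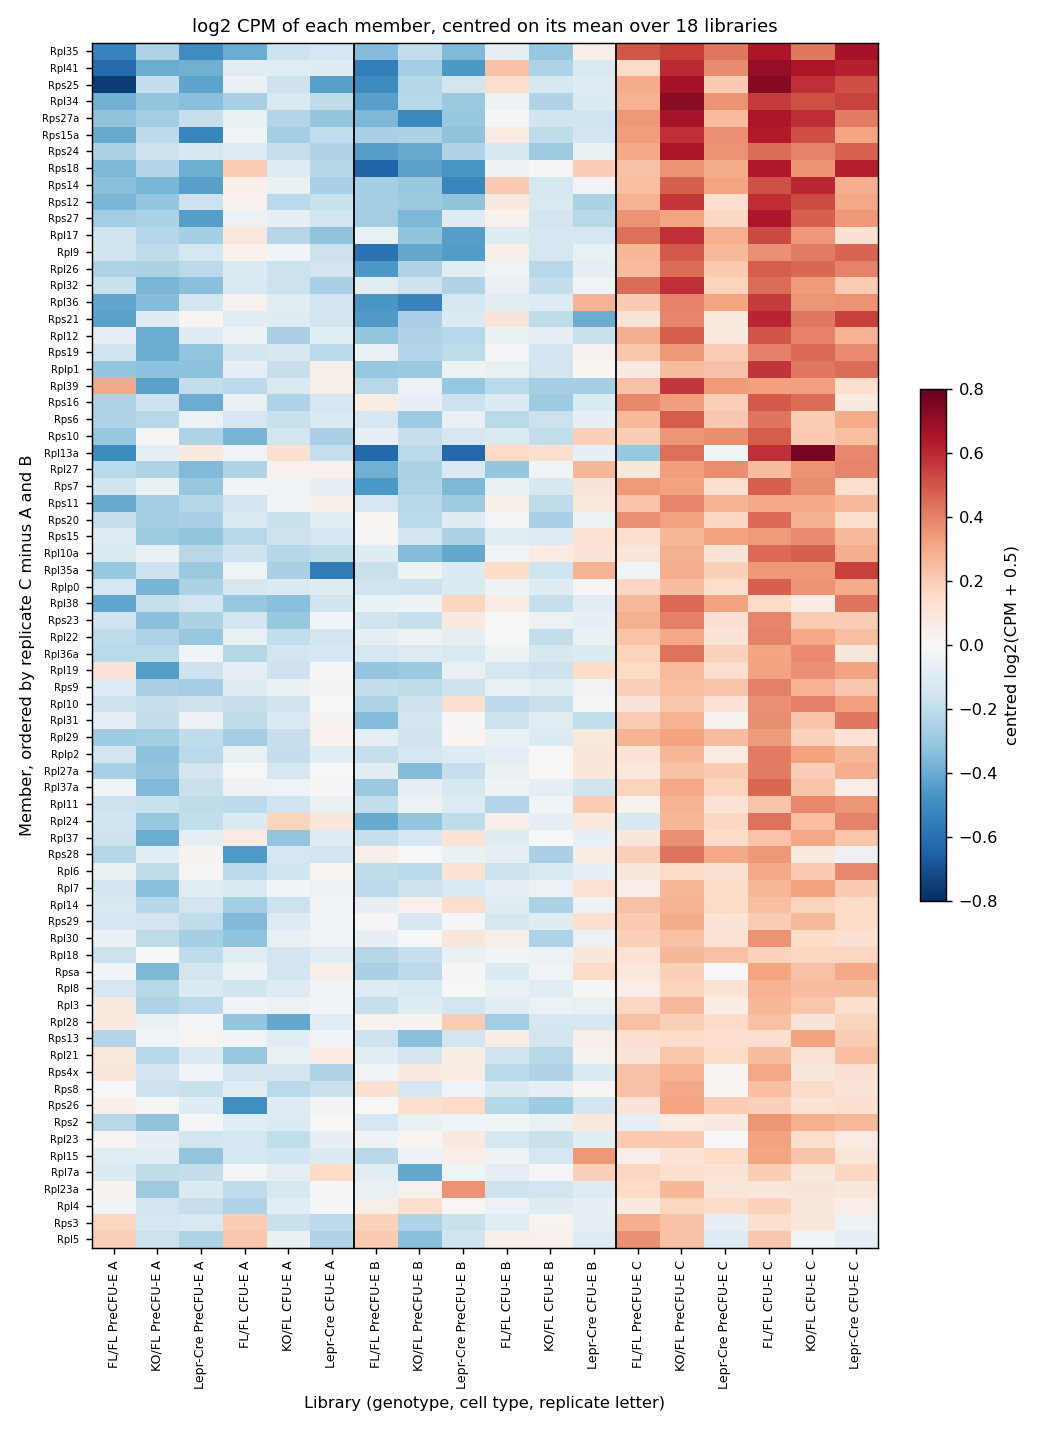
Centred log2(CPM + 0.5) of 72 of the 75 measured members (rows, ordered by how far replicate C exceeded A and B) in the 18 libraries (columns, replicates A, B and C from left to right, 6 groups within each). Red is above and blue below a gene's mean, and the 6 C columns are raised in nearly every row, most in Rpl35 and Rpl41 at the top and least in Rps3 and Rpl5 at the bottom.

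Most of the variation in these genes was common to them. Of the members' log2 variance over the 18 libraries, 68.6% lay in the mean of the library. The deviations of 2 members from their group means had a median Pearson's r of 0.85 over 2775 pairs, all of them positive, and of 0.17 without the C mice. Members closest to the mean of the set were Rpl34 (r = 0.98 over 18 libraries), Rpl26 (0.98) and Rplp0 (0.97), and those farthest from it Rpl5 (0.40), Rps3 (0.455) and Rps26 (0.57). Among the 8790 other genes the nearest was Fau (r = 0.95), which encodes a ribosomal protein fused to a ubiquitin-like one and falls outside the name pattern. Atpif1, the inhibitor of the mitochondrial ATP synthase, followed at 0.94 and Cox7b, a subunit of cytochrome oxidase, at 0.93. These values describe libraries that share the letter pattern above.

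The balance of the subunits kept within a narrow range. Large subunit counts were 1.59 to 1.76 times the small subunit counts, with 1.65 ± 0.05 (SD, n = 3) in FL/FL, 1.66 ± 0.08 in KO/FL and 1.70 ± 0.05 in Lepr-Cre PreCFU-E. In CFU-E the ratio was 1.62 ± 0.02, 1.67 ± 0.03 and 1.70 ± 0.04 in the same order. In CFU-E the 3 Lepr-Cre libraries (1.68 to 1.74) lay above the 3 of FL/FL (1.60 to 1.64), and in PreCFU-E they overlapped (1.67 to 1.76 against 1.59 to 1.69). Within a mouse the ratio in CFU-E minus that in PreCFU-E ran from -0.086 to 0.061, 5 times up and 4 times down. The C libraries (1.59 to 1.68) averaged 1.63 and the A and B libraries 1.68 (1.60 to 1.76), with overlapping ranges.

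The comparison of CFU-E with PreCFU-E asks how the set behaves as PreCFU-E give rise to CFU-E. Averaged over genotypes, 2 of 75 members passed the test (edgeR quasi-likelihood test, Benjamini-Hochberg adjusted p under 0.05), both higher in CFU-E, against 34.8% of all 10732 genes tested (17.2% higher and 17.6% lower). Rpl13a (chr7:45125558-45128761, minus strand, in GENCODE), a large subunit protein that interferon-gamma signalling releases from the ribosome in myeloid cells, read 46.9, 43.0 and 54.1 CPM in FL/FL PreCFU-E, with KO/FL at 63.6, 57.4 and 90.8 and Lepr-Cre at 70.7, 43.1 and 65.5. The CFU-E of the same mice read 65.3, 74.6 and 100.6 CPM (FL/FL), 72.9, 73.1 and 113.7 (KO/FL) and 58.7, 63.8 and 87.3 (Lepr-Cre). It was higher in CFU-E in 8 of 9 mice, with a log2 fold change of 0.42 (SE 0.13, edgeR adjusted p = 0.0144). Rpl24 (chr16:55966275-55971435, plus strand), which bridges the subunits and is mutated in the belly spot and tail mouse, was at 76.0 to 120.8 CPM in PreCFU-E and 93.3 to 136.2 in CFU-E, higher in 8 of 9 mice and up by 0.28 (SE 0.09, edgeR adjusted p = 0.0185). Its call was lost without FL/FL B (0.27), FL/FL C (0.23) or KO/FL A (0.24). Exons of both called members overlap other GENCODE genes on the same strand: Gm45713, Mir5121 and Snord33 in Rpl13a, and Gm28037 in Rpl24. What part such overlaps have in their counts was not tested. The next smallest p was that of Rps2 (0.16, SE 0.07, edgeR adjusted p = 0.0738). The median of the 75 was 0.08, with 59 above 0, against 0.00 over all genes. Stromal markers ran from 1.49 to 25.5 CPM in PreCFU-E and 0.353 to 6.76 in CFU-E, and endothelial markers from 19.2 to 46.8 and 6.43 to 33.5 CPM, and their part in the step was not tested.

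Because a mouse gave both libraries, the mouse can be set as a block, and then the same small shifts stood out from the spread. With the block 30 members were called higher and 4 lower in CFU-E, 34 in all against 41.3% of all genes, and all genes split into 21% higher and 20.3% lower. The higher calls held 16 large and 14 small subunit members. Rpl41 rose by 0.35 (SE 0.05, edgeR with block, adjusted p = 2.98e-08) and was higher in 9 of 9 mice. Rps18, of the head of the small subunit, rose by 0.36 (SE 0.05, edgeR with block, adjusted p = 1.37e-07), from 166.3 to 333.3 CPM in PreCFU-E to 221.5 to 404.9 in CFU-E and in 9 of 9 mice. Rps14 rose by 0.26 and Rplp1 by 0.23, and the stalk members Rplp0 (0.14) and Rplp2 (0.15) and Rpsa (0.16) were also called higher. Among those called lower were Rps26 (-0.19), Rpl28 (-0.19) and Rps4x (-0.13), each of them higher in CFU-E in only 2 of 9 mice. With the A and B mice alone and no block, 15 were called higher and 4 lower, against 27.6% of genes.

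**Figure D4:**
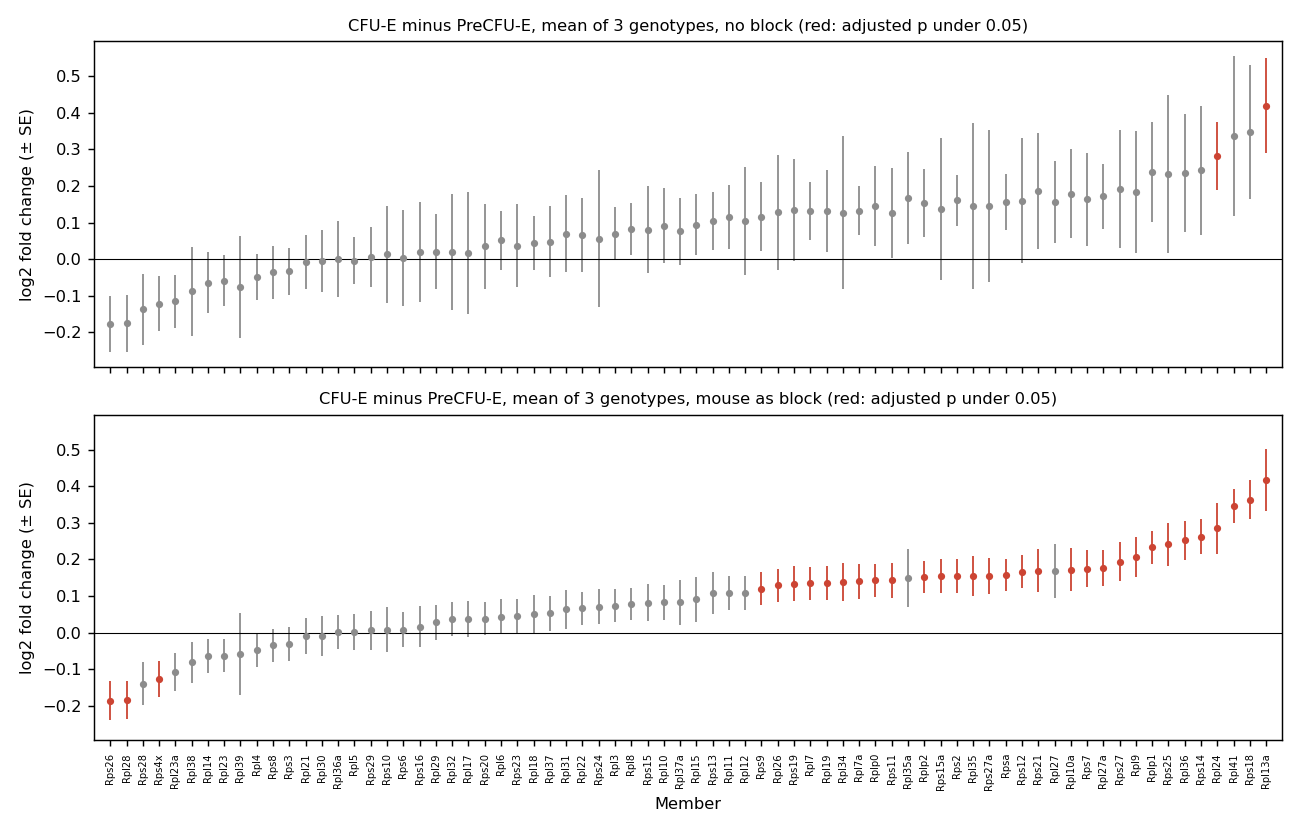
log2 fold change (± SE) of CFU-E over PreCFU-E, averaged over the 3 genotypes, for 72 of the 75 members without a block (top) and with the mouse as a block (bottom), in red where the adjusted p was under 0.05. The estimates barely differ between the panels, from about -0.19 in Rps26 to 0.42 in Rpl13a, while the errors shrink with the block.

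By mouse, the mean step over the 75 members was 0.04, 0.13 and 0.19 in FL/FL mice A, B and C, 0.09, 0.05 and -0.04 in KO/FL mice and 0.09, 0.11 and 0.09 in Lepr-Cre mice. It was above 0 in 8 of 9 mice, and KO/FL C was the exception. Of the members, 9 were higher in CFU-E in all 9 mice (Rpl7, Rpl26, Rpl41, Rplp0, Rplp1, Rplp2, Rps7, Rps18 and Rps19), against 11.3% of all genes of at least 5 CPM. The step of other genes also differed by length: their median was 0.17 below 1000 bases, 0.07 from 1000 to 2000 and 0.02 from 2000 to 4000, against 0.10, 0.08 and 0.05 in members of the same lengths. Above 4000 bases other genes had a median of -0.02, and Rps15a, the only member there by its longest annotated transcript, stood at 0.15. What part length has in it was not tested.

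Within FL/FL mice 1 member was called, Rpl13a (0.74, SE 0.22, edgeR adjusted p = 0.0232), against 18.3% of genes, with Rpl24 (0.37) and Rps2 (0.24) next. Leaving out any of the 3 FL/FL mice ended that call, at 0.62 to 0.85. With the mouse as a block 18 were called against 25.2% of genes (13.2% higher and 12% lower). Of these 17 were higher, led by Rpl41 (0.62), Rps25 (0.59) and Rps18 (0.52). The A and B mice alone gave 12 calls without a block, against 13.8%. Rps25 read 83.5, 99.6 and 173.9 CPM in FL/FL PreCFU-E and 136.6, 155.8 and 234.4 in the CFU-E of the same mice, so the groups overlap although the value was higher in CFU-E in each mouse. Within KO/FL mice no member was called by edgeR or DESeq2, against 14.1% of genes, nor by edgeR with the block, against 20.1%, and none had an unadjusted p under 0.05 without the block, while 11 did with it. The 3 smallest p there were those of Rps26 (-0.23), Rpl28 (-0.19) and Rps28 (-0.23). Within Lepr-Cre mice none was called by edgeR or by DESeq2, against 7.25% of genes, with 0 at an unadjusted p under 0.05 and the smallest p in Rpl7a (0.21), Rpl24 (0.27) and Rpsa (0.21). The block called 3 there (Rps18 0.38, Rpl35 0.34 and Rpl41 0.29), against 12.3%. Whether the step of KO/FL differed from that of FL/FL mice was not tested. Whether the step of Lepr-Cre differed from that of each other genotype was tested directly. The interaction of cell type with Lepr-Cre against FL/FL, and with Lepr-Cre against KO/FL, called 0 members by edgeR and by DESeq2. This stood against 0.354% and 0% of genes, and no member had an unadjusted p under 0.05. Among the smallest p in the first were those of Rpl13a (-0.51) and Rps29 (0.22), and in the second those of Rpl11 (0.18), Rpl35a (0.26) and Rpl15 (0.16). The block left 0 calls, against 1.84% and 0.568% of genes.

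The genotype comparisons within a cell type ask how these genes differ with the Scf genotype. Lepr-Cre and FL/FL mice differ in the null copy and in the Cre, whose parts that comparison cannot tell apart. KO/FL and FL/FL mice differ in the null copy, and Lepr-Cre and KO/FL mice in the Cre. In PreCFU-E, Rpl5 alone passed between Lepr-Cre and FL/FL mice, against 6.13% of genes. Rpl5 (chr5:107900502-107909005, plus strand) binds the smallest ribosomal RNA together with Rpl11, and the free complex restrains MDM2 and so stabilises p53. PreCFU-E of FL/FL mice held 644.4, 652.2 and 729.1 CPM, those of KO/FL mice 501.8, 448.4 and 665.2, and those of Lepr-Cre mice 475.7, 506.4 and 525.3. All 3 Lepr-Cre libraries thus lay below all 3 of FL/FL, and KO/FL overlapped both. The log2 fold change was -0.42 (SE 0.12, edgeR adjusted p = 0.0443), and within letters the differences were -0.44, -0.36 and -0.47. Leaving out any FL/FL or Lepr-Cre library, or KO/FL A, ended the call, with differences of -0.38 to -0.45. With the A and B mice alone it was called (-0.41, edgeR adjusted p = 0.0494), against 2.6% of genes.

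Rps3 (chr7:99477896-99483738, minus strand), which lies where the messenger enters the ribosome, had the same shape. FL/FL PreCFU-E held 1392, 1406 and 1517 CPM, KO/FL PreCFU-E 1130, 1043 and 1459, and Lepr-Cre PreCFU-E 1140, 1092 and 1185. The Lepr-Cre libraries again lay below those of FL/FL (-0.33, SE 0.12, edgeR adjusted p = 0.102), and the third smallest p was that of Rpl13a (0.32, adjusted p = 0.395). With the replicate letter as a block 6 members were called, against 15.4% of genes, among them Rpl5 (-0.42, edgeR with block, adjusted p = 3.12e-05), Rps3 (-0.33, edgeR with block, adjusted p = 0.000217), and Rpl17 (-0.21) lower, and Rps21 (0.27) and Rpl36 (0.24) higher. The median of the 75 was 0.02, with 41 above 0 and a range from -0.42 to 0.32.

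Between KO/FL and FL/FL PreCFU-E no gene at all was called by edgeR (0% of 10309) and no member by DESeq2, and 3 members had an unadjusted p under 0.05: Rpl13a (0.56), Rpl5 (-0.32) and Rps3 (-0.25). The letter block called Rpl5 alone (-0.34, edgeR with block, adjusted p = 0.0462), against 0.0873% of genes. Between Lepr-Cre and KO/FL PreCFU-E edgeR and DESeq2 called 0 members, against 2.18% of genes, and none had an unadjusted p under 0.05. With the block it was 0 against 8.15%. Among the smallest p were those of Rpl6 (0.16) and Rpl13a (-0.24), and Rpl5 differed by -0.10 (SE 0.12). These comparisons share libraries with each other.

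CFU-E gave the same order of means for Rpl5. FL/FL CFU-E held 658.8, 579.8 and 657.1 CPM, KO/FL CFU-E 542.9, 577.1 and 554.2, and Lepr-Cre CFU-E 477.4, 526.1 and 537.5. Lepr-Cre lay below FL/FL without overlap (-0.28, SE 0.10, edgeR adjusted p = 0.116). Its p was the only one under 0.05 without adjustment, and edgeR called 0 members against 4.83% of genes, while DESeq2 called 1. With the letter block Rpl5 was called (edgeR with block, adjusted p = 0.0417), against 9.15% of genes. Next came Rpl27 (0.33) and Rps3 (-0.18), whose libraries overlapped. Between Lepr-Cre and KO/FL CFU-E, and between KO/FL and FL/FL CFU-E, edgeR and DESeq2 called 0 members, none with an unadjusted p under 0.05, against 1.01% and 0% of genes, and the block left 0 against 2.75% and 0%. The 3 smallest p were those of Rpl7a (0.18), Rpl38 (0.24) and Rpl13a (-0.30) in the first and Rpl5 (-0.17), Rpl27 (0.22) and Rps20 (-0.16) in the second. The difference of Rpl5 between genotypes was not found to differ between the cell types (interaction 0.13, SE 0.16, edgeR adjusted p = 0.936).

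**Figure D5:**
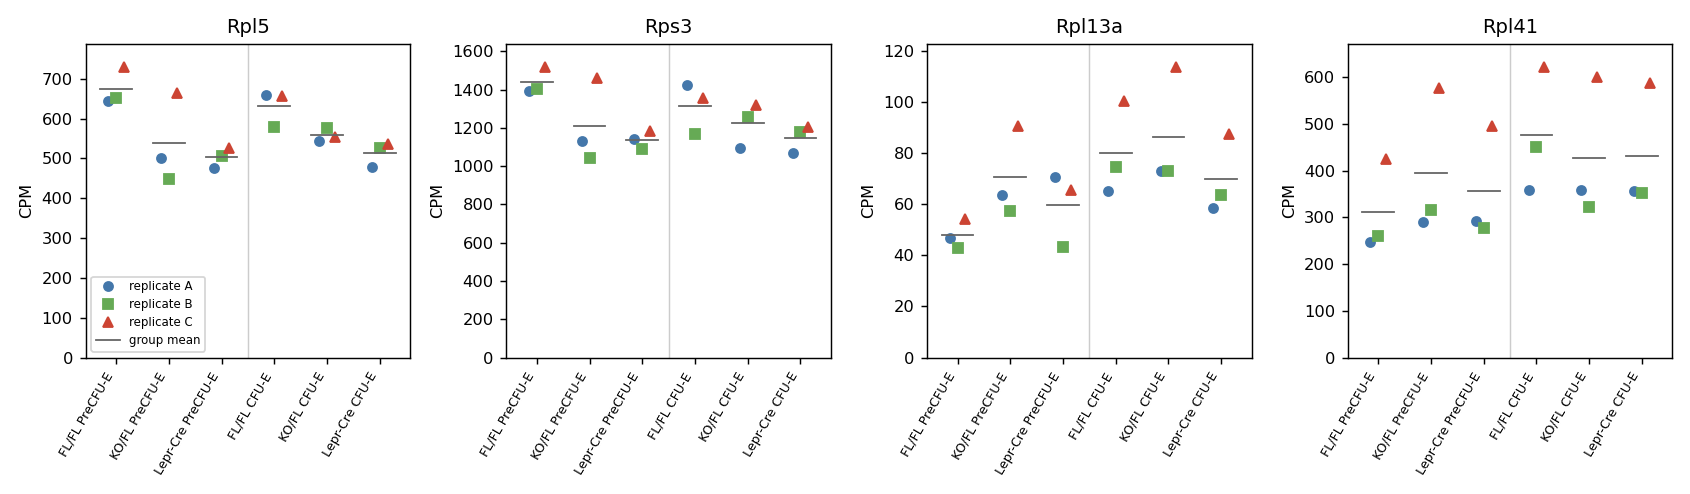
CPM of Rpl5, Rps3, Rpl13a and Rpl41 in every library, with genotypes from left to right within PreCFU-E and then CFU-E, points by replicate letter and lines at group means. The group means of Rpl5 and Rps3 are highest in FL/FL PreCFU-E, at 675.2 CPM (libraries 644.4 to 729.1) and 1438 CPM (libraries 1392 to 1517). In Rpl41 replicate C stands above A and B in all 6 groups.

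Over 18 libraries Rpl5 and Rps3 followed each other (r = 0.94) more closely than they followed the mean of the set (0.40 and 0.455). After group means were removed their r was 0.90, near the median of 0.85 over all pairs of members. Rpl5 and Rps3 both carry snoRNA genes, whose small RNAs guide the modification of ribosomal RNA, inside them. In the GENCODE annotation 28 of the 75 members hold a snoRNA gene on their strand, against 1.69% of 8415 other expressed genes, and in 23 of them a snoRNA lies over an annotated exon of some transcript, such as Snord21 in Rpl5 and Snord15b in Rps3. The 5 members with the smallest difference of C from A and B (Rpl5, Rps3, Rpl4, Rpl23a and Rpl7a) were all among those 23, and 7 of the 10 smallest were. The 23 had a median difference of 0.29 (0.15 to 0.60) and the other 52 of 0.42 (0.24 to 0.80). Between Lepr-Cre and FL/FL PreCFU-E their medians were -0.01 (-0.42 to 0.32) and 0.04 (-0.22 to 0.24). Of the 23, Rpl5 stood at the low end and Rpl13a, with Snord33, at the high end. Outside the set, the gene nearest to Rpl5 (r = 0.91) and to Rps3 (r = 0.88) was Snx5, which holds Snord17, at 454.2 to 649.7 CPM, a gene looked up after these values were seen. Of the 6 genes among the 5 nearest to Rpl5 or to Rps3, it was the 1 that holds a snoRNA gene. The count table has 0 rows named as snoRNA genes, and whether reads of snoRNAs enter the counts of their hosts was not tested.

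Of the members, 20 are genes of Diamond-Blackfan anaemia, or in the case of Rps14 of a myelodysplastic syndrome with loss of a chromosome arm. Without a block none of the 20 passed between CFU-E and PreCFU-E, with a median of 0.10 and 17 above 0, against 34.8% of all genes. Rps19, the gene most often mutated in the disease, read 240.0, 256.9 and 313.3 CPM in FL/FL PreCFU-E and 241.4, 265.8 and 355.6 in the CFU-E of the same mice. It was higher in CFU-E in 9 of 9 mice (0.13, SE 0.14 without and 0.05 with the block). With the block 7 of the 20 were called higher (Rps14, Rps27, Rps7, Rps15a, Rpl35, Rpl26 and Rps19) and Rps26 lower, against 21% of all genes higher and 20.3% lower with the block. Estimates of the other 12, without the block, lay between -0.14 in Rps28 and 0.17 in Rpl35a, with Rpl5, Rpl11, Rpl15 and Rpl27 between them. Rpl5 was the only one of the 20 called between genotypes, and Rpl11, its partner, read 276.8, 271.5 and 316.9 CPM in FL/FL and 269.5, 289.2 and 335.0 in Lepr-Cre PreCFU-E, which overlap.

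Genes that make, control or resemble the ribosome were counted beside its proteins. Calls in this paragraph are those without a block, and calls with the mouse as a block are left out. With the block 41.3% of all genes were called between cell types, against 34.8% without it. In CFU-E against PreCFU-E, 9 of 26 ribosome biogenesis genes were lower and none higher, against 17.6% of all genes called lower, with a median of -0.10, among them Ebna1bp2 (-0.37), Rrp9 (-0.30), Rrp12 (-0.28) and Mybbp1a (-0.27). Of 13 tested genes of the mTOR, LARP1 and MYC list 3 were lower, namely Myc (-0.89), Larp4 (-0.28) and Larp1 (-0.25), and Rps6kb2 was higher (0.33). Chaperones and importins of ribosomal proteins gave 2 lower (Rrs1 -0.30, Tnpo1 -0.23) and 1 higher (Bccip 0.20) of 10. Of 22 other TOP genes 3 were higher, among them Btf3 (0.29) and Eif4a2 (0.28), and 2 lower, Pabpc1 (-0.29) and Eif4b (-0.19). Ribosome rescue gave 1 of 9, Hbs1l (0.27). Of the mitochondrial ribosome 20 of 76 genes were called higher, against 17.2% of all genes, such as Mrps36 (0.78), Mrpl18 (0.45), Mrpl49 (0.44) and Mrpl20 (0.43), and 2 lower, with a median of 0.18. Of the 8 tested relatives outside the name pattern none was called without the block, with Fau at 0.25, Rps27l at 0.28 and Gnb2l1 at 0.10.

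Between Lepr-Cre and FL/FL PreCFU-E the same lists gave few calls without a block, against 6.13% of all genes. Noc4l, of the small subunit processome, was higher (0.64, SE 0.13, edgeR adjusted p = 0.0025) and Nop56, a core protein of the snoRNPs and itself a snoRNA host, lower (-0.38, SE 0.11, edgeR adjusted p = 0.0414) among 26 biogenesis genes. Npm1, a nucleolar chaperone with a TOP messenger, was higher (0.42, SE 0.11, edgeR adjusted p = 0.0208), as was Mrpl18 (0.54, SE 0.15, edgeR adjusted p = 0.0298) alone of 76 mitochondrial ribosomal genes. None of the chaperone, rescue, mTOR or relative genes passed, with medians of 0.25, 0.15, 0.02 and -0.07. With the letter block, under which 15.4% of all genes were called, the calls became 8 higher and 1 lower in biogenesis, 7 and 1 in the TOP genes, 11 and 0 in the mitochondrial ribosome, 1 and 0 in the chaperones, 3 and 0 in rescue and 1 and 0 in the relatives.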

How the data were processed

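The labels name total RNA and a stranded SMARTer kit made for low input. Headings of the protocol name nuclear extraction, while its text describes sorted cells and total RNA. The submitters' processing notes list STAR 2.5.2b, HTSeq and mm10 (GRCm38). The strand setting, annotation and treatment of reads with several matches are unstated there. Deposited counts are whole numbers of reads for each gene symbol. The deposited RPKM values were scaled by the authors by library and by 1 number per gene. That number matched the span of the gene 17 rows further down for 68 of 75 members, and the own span of 1. RPKM was therefore used to compare libraries within a gene, apart from sums over genes named as such at the end, and levels between genes are CPM per kb of the APPRIS principal transcript with the best support (longest where tied) in GENCODE M21. This replaces mean RPKM in the rule for named genes.

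Fits used edgeR 4.0.16 (R 4.3.3) with TMM factors, filterByExpr at a count of 10 and a total of 15, and quasi-likelihood tests with robust dispersion. Tests were two-sided, with Benjamini-Hochberg values over all tested genes and a threshold of 0.05. Cell types and interactions were fitted on 18 libraries, genotypes on the 9 of a cell type. The SE was obtained by dividing the absolute log2 fold change by the square root of F. CPM use TMM factors. The script was tested on simulated data.

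A mouse pairs its 2 libraries. Letters were taken to pair genotypes within a cell type because every correlation of deviations from group means, over 10246 genes, passed 0.1 (lowest 0.101). Across genotypes and cell types the same letter gave values as low as 0.025 (KO/FL PreCFU-E with Lepr-Cre CFU-E). This pairing was chosen from these same data and is not given by the labels, and p-values with the letter block depend on it. Values with the block stand beside results that they change, except for the other gene lists between cell types, which are given without it. Replicates of a group were distinct, with a chi-square over degrees of freedom of at least 7.75 in each pair.

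Named are, per comparison, the called members (up to 10 per direction) or else the 3 smallest p; the 5 highest and 5 lowest levels; Rplp0, Rplp1, Rplp2 and Rpsa; the anaemia genes; up to 4 genes of each other list in 2 comparisons; and the 3 nearest genes. A few genes are not reported here by name or drawn. The members and lists were chosen with earlier results of these data known. Alternatives were other scalings, no filter, DESeq2 1.42.0, limma 3.58.1 on log2 RPKM, all libraries in 1 fit, the mouse or letter as a block, libraries left out, and the A and B mice alone.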

Additional observations from a re-analysis of the deposited data

How the results depend on the processing

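No member called without a block changed direction under the alternatives run. Counts of called members that moved are given here. Between cell types the count went from 2 to 34 with the mouse as a replicate block, 19 with the A and B mice alone (20 with the block), 7 with no filter, 4 with library totals in place of TMM and 0 with limma on log2 RPKM at either pseudocount (1 or 0.1), and lay between 1 and 3 when a mouse was left out. Within FL/FL mice the count of 1 became 18 with the block, 12 with A and B alone (13 with the block), 0 with limma at either pseudocount, and 0 to 1 without a mouse. Within KO/FL mice A and B alone with the block gave 1, and within Lepr-Cre mice the block gave 3, or 2 with A and B alone. Between Lepr-Cre and FL/FL PreCFU-E the count of 1 became 6 with the block, 3 with A and B alone and the block, 2 with DESeq2, library totals or no filter, 0 with limma at either pseudocount, and 0 to 2 without a library. Between KO/FL and FL/FL PreCFU-E the block gave 1, and 2 with A and B alone. Between Lepr-Cre and FL/FL CFU-E DESeq2 and the block each gave 1, and the interaction of cell type with Lepr-Cre against FL/FL gave 1 with A and B alone and the block. In no other comparison did the block change the count of called members by over 1.5 times. Counts over all genes and over the other lists did move with it, as given above.

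The median large to small ratio was 1.67 from summed counts and 0.953 from geometric means, which compare a typical member of each subunit and fall on the other side of 1. The median share was 3.48% of counts and 2.17% without members that share over 50% of their windows with other genes. Summed RPKM gave a ratio of 2.62 and a share of 7.87%, but these weigh members by divisors that belong to other genes and are not read as ratios or shares. The alternatives with A and B alone and without shared members were chosen after seeing the data. A planned check of shared windows against the whole genome was not run, and annotated transcripts were used in its place. Reads that fit several copies, 3 mice per group and the letter pattern limit the precision of small differences.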
